A study of Mus musculus with 4 samples.

Results

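Genes of Wnt signalling were followed in RNA from mouse molar teeth. The set was defined by gene name. No measured value entered the rule, but earlier results of these data were known when it was chosen. The set comprised every probe set that names a single Wnt, Frizzled (Fzd), secreted Frizzled-related (Sfrp) or Dickkopf (Dkk) gene, or Lrp5, Lrp6, Lef1, Tcf7, Axin1, Axin2, Ctnnb1 or Wif1. It held 44 genes, measured by 86 of the 34958 probe sets that name 1 gene, out of 18194 genes in all. Of the 45 genes of the reference table that meet these names, Tcf7 alone had no probe set naming it by itself and was not analysed here. Where a gene had several probe sets, the one with the highest log2 signal averaged over the arrays stood for it.

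The samples were 4 arrays (Affymetrix Mouse Genome 430 2.0, 1 colour) that form 1 group. All carry RNA of a single pool of molars from 60 Swiss-Webster pups, male and female, aged 1 to 10 days after birth, with no treatment and no altered allele named. The arrays are therefore technical repeats, so each SD and p-value below covers technical spread only, and changes with age cannot be seen. Arrays of control tissues that the design sets beside these belong elsewhere and were not used here. The comparison made is therefore that of each gene with the background on the same arrays.

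Wnt proteins are lipid-modified, secreted signals that bind Frizzled receptors together with the co-receptors Lrp5 and Lrp6. In the canonical branch this protects beta-catenin (Ctnnb1) from destruction by a complex built on Axin1 and Axin2, and beta-catenin then activates genes with Lef1 and Tcf7. Sfrp proteins and Wif1 bind Wnts outside the cell, and Dkk1 blocks the co-receptors. The pathway is needed throughout tooth formation. Mice without Lef1 arrest their teeth at an early stage, and people with WNT10A or AXIN2 mutations often lack teeth.

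Genes for olfactory, vomeronasal and taste receptors, with 86 probe sets, served as the background, and the threshold on an array was their 95th percentile. It ranged from 996 to 1295 signal units over the 4 arrays. A gene was called above background if 1 of its probe sets exceeded the threshold on all 4 arrays, and a gene is said below to pass on an array where the probe set shown exceeds it there. The signal is in the arbitrary units of MAS5, Affymetrix's probe summary, and depends on the probes, so signals of different genes are not amounts of mRNA on a shared scale. The teeth were not separated by cell type, so fewer cells of a type and less RNA per cell cannot be told apart.

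The tissue label was checked against markers. All 7 ameloblast genes (of enamel-forming cells), all 4 measured odontoblast and bone genes and all 3 dental mesenchyme genes were above background. So were 4 of 4 genes of oral and cornified epithelium, whose summed signal ranged from 111309 to 132088 over the arrays, 5 of 5 skeletal muscle genes (48835 to 57497), 4 of 4 endothelial genes (17419 to 18622), 3 of 4 blood and immune genes (27637 to 32776) and Stmn2, the only nerve gene measured (4415 to 5479). Cartilage had 1 of 4 genes above background, Col2a1, with Acan, Col9a1 and Col10a1 not above it. These cells can also express Wnt genes, and their part in the signals below was not tested.

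By the call on all 4 arrays, most of the receiving machinery gave signals above background. The ligand share was nearer to that of all genes than the shares of the other roles were. Of the 44 genes, 29 (65.9%) were above background, against 51.6% of all 18194 genes. By role the counts were 8 of 19 Wnt ligands (42.1%), 10 of 12 receptors (83.3%), 7 of 9 secreted inhibitors (77.8%) and 4 of 4 effectors. By this rule the share for ligands lay below that of all genes and the shares for the other roles above it, and no test was made of these shares. The place of the ligands turned with the processing. They stood at 8 of 19 (42.1%) against 39.3% of all genes when a gene was called on the median of its probe sets, and at 8 of 16 (50%) against 46.6% without probe sets of shared sequence. By the median probe set the receptors were at 7 of 12 (58.3%). The median log2 signal was 12.13 for the 44 genes and 10.69 for all genes. It was 9.80 for ligands, 12.43 for receptors, 12.82 for inhibitors and 12.47 for effectors.

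**Figure D1:**
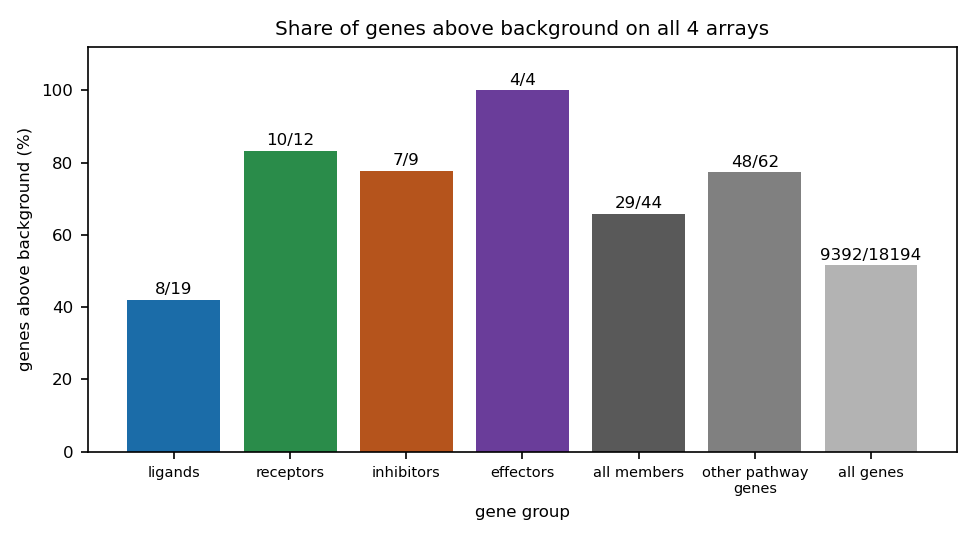
Bars give the percentage of genes above background on all 4 arrays, by role, with the number of genes above background and measured over each bar. The ligands stand at 42.1% and all genes at 51.6%, an order that turns by the median probe set (42.1% and 39.3%) and without probe sets of shared sequence (50% and 46.6%), and the receptors stand at 83.3%.

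A gene with more probe sets has more chances of a call. The set had 1.95 probe sets per gene against 1.92 over all genes, but the roles differed, with 1.68 for ligands and 2.42 for receptors. Counted by probe set, 50 of 86 (58.1%) were above background against 42.5% of all probe sets naming 1 gene. This count was not split by role. How far the number of probe sets shapes the order of the roles was not tested. Of the genes not above background, Sfrp5 had the highest mean signal, 1266 ± 222 (SD, n = 4), and of those above it Fzd4 had the lowest, 1779 ± 103. No gene of the set had a mean between these values on the probe set that stood for it. Dimmer probe sets of Fzd1, Fzd3, Fzd4, Fzd6, Lrp6 and Sfrp1 did, with means from 1314 to 1747. On the probe set shown, 5 of the 44 passed on 1 to 3 arrays, against 12.9% of all genes. A one-sided limma test of signal over threshold was run on the brightest probe set of each gene, picked by these same signals. With Benjamini-Hochberg adjustment over all genes, it called the same 29 (51.1% of all genes), the weakest being Fzd4 at an adjusted p of 0.00283. The test and the array rule share their signals and threshold, so the match is no separate support.

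**Figure D2:**
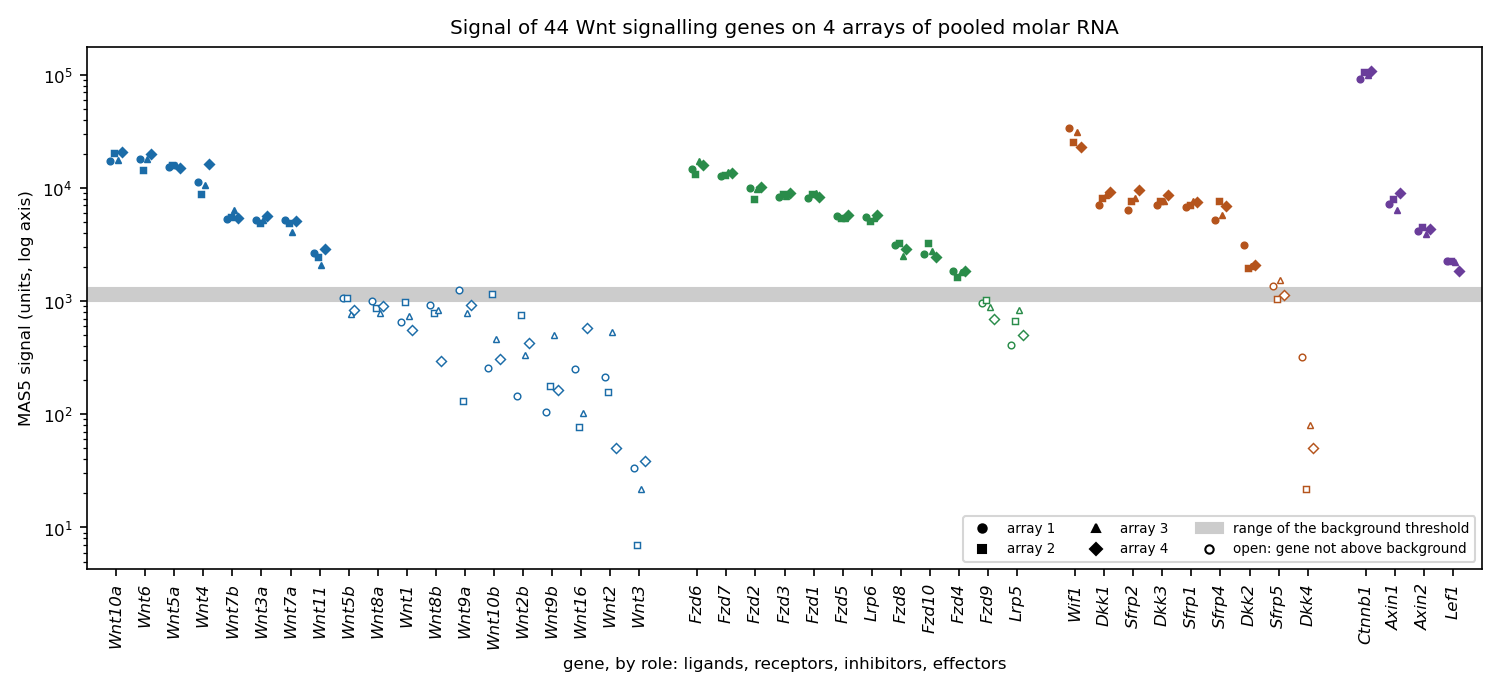
Each marker is the signal of a gene on 1 array, on a log axis, with genes ordered by role and by mean log2 signal and the grey band showing the range of the background threshold. Filled markers, for the 29 genes above background, lie above the band on every array, and the open markers of Wnt10b, Wnt2 or Wnt3 scatter widely below or into it.

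The ligand genes above background were Wnt10a, Wnt6, Wnt5a, Wnt4, Wnt7b, Wnt3a, Wnt7a and Wnt11. Wnt10a, which signals in dental epithelium and odontoblasts, had signals of 17384, 20149, 17454 and 20610 on arrays 1 to 4. Its mean of 18899 ± 1720 (SD, n = 4) corresponds to 16.3 times the threshold. Wnt6, a ligand of many epithelia, had 17947, 14426, 17805 and 19848. Both genes stayed far above the threshold on every array, and for neither did any array stand apart.

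Wnt5a is the best known ligand of the branch that acts without beta-catenin, through receptors such as Ror2. It had 15153, 15905, 15835 and 14916 on arrays 1 to 4, with an SD of 0.05 on the log2 scale, equal to that of Fzd3 and the smallest among the 29 genes. Wnt4, needed for kidney tubule formation, had 11180, 8817, 10638 and 16346. Array 4 was the high one for Wnt4, whose SD of 0.37 on the log2 scale was the largest among the 29, although even its lowest signal was far above the threshold.

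The other 4 ligands above background were dimmer. Wnt7b, an epithelial ligand of the mouth and lung, had 5358, 5542, 6342 and 5429. Wnt3a, the ligand used as the standard activator of beta-catenin in cell culture, had 5200, 4894, 5250 and 5610. These values were about as far over the threshold as each other, at 4.89 and 4.52 times, with all arrays close together. Wnt7a, which patterns the back of the limb, had 5218, 4919, 4065 and 5066, lowest on array 3, and Wnt11, a ligand of cell movement, had 2521 ± 348 (SD, n = 4). Wnt11 was the ligand nearest to the threshold from above, at 2.16 times (limma adjusted p = 1.1e-06).

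The remaining 11 ligands were not above background, with mean signals from 25.2 (Wnt3) to 937 (Wnt5b). Wnt5b, Wnt8a, Wnt9a and Wnt10b exceeded the threshold on 1 array each. Wnt5b, the close relative of Wnt5a, had 1075, 1062, 770 and 841 on arrays 1 to 4, and Wnt8a had 1010, 876, 785 and 910. For both genes array 1 was the array over its threshold, and the others were below theirs. Wnt9a had 1240, 131, 787 and 923, and Wnt10b, the close relative of Wnt10a, had 256, 1161, 466 and 310. A single array carried the passing value in each case, array 1 for Wnt9a and array 2 for Wnt10b.

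The other 7, Wnt1, Wnt2, Wnt2b, Wnt3, Wnt8b, Wnt9b and Wnt16, exceeded the threshold on 0 arrays. Wnt1 had 655, 979, 743 and 556 on arrays 1 to 4, Wnt9b had 104, 179, 502 and 163, and Wnt3 had 33.2, 7.01, 21.9 and 38.6. All 3 lay under the threshold on every array. Wnt3 and Wnt10b, with 1 probe set each, and Wnt5b, with 2, were measured only by probe sets whose suffix marks shared sequence. Low values on these arrays do not establish that a gene was silent. The ligands not above background varied more between arrays, with a median SD of 0.97 on the log2 scale against 0.15 for those above it. The 15 genes of the set not above background, these ligands included, had a median of 0.96. All genes above background had 0.16.

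Several Wnt genes lie side by side in the genome. In the reference annotation (GRCm38.p6), 4 pairs of the 19 are neighbours among protein-coding genes. Wnt6 and Wnt10a, neighbours on chromosome 1, were both above background, at 17507 ± 2255 and 18899 ± 1720 (SD, n = 4). Of the pair on chromosome 11, Wnt3a was above background at 5239 ± 293 and Wnt9a was not, at 770 ± 467. Neither gene was above background in the other chromosome 11 pair, Wnt9b at 237 ± 179 and Wnt3 at 25.2 ± 14.0. The pair on chromosome 15 was not above background either, with Wnt10b at 548 ± 418 and Wnt1 at 733 ± 181. Neighbouring Wnt genes thus had the same call in 3 of 4 pairs, where 8 of the 19 ligands were above background and 11 were not. So few pairs do not show that neighbours share calls more often than other ligands, and no test was made.

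Of the receptor genes, 9 of 10 Frizzleds and Lrp6 were above background. Fzd6, known for its role in hair patterning and nail growth, had 14703, 13149, 17119 and 15833 on arrays 1 to 4. Fzd7, a receptor of many stem cell populations, had 12716, 12967, 13938 and 13651. Fzd2, a receptor for Wnt5a among others, had 10050, 7985, 9699 and 10263. All 3 were at least 8.17 times the threshold on average, and the arrays of each lay close together beside that distance.

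Fzd3, which guides axon growth, had 8309, 8813, 8542 and 9051, and Fzd1 had 8063, 8813, 8971 and 8326. Fzd5, known from eye and gut, had 5684, 5391, 5365 and 5797. The arrays lay close together for these receptors, with SDs of 0.05, 0.07 and 0.06 on the log2 scale. Fzd8 had 3114, 3278, 2500 and 2902 on arrays 1 to 4 and Fzd10 had 2599, 3289, 2793 and 2435. Fzd4, the Norrin receptor of retinal vessels, had 1843, 1628, 1798 and 1848. These 3 receptors were the nearest to the threshold from above, at 2.54, 2.39 and 1.54 times.

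The co-receptors had different calls. Lrp6, in which human mutations have been linked to missing teeth, had 5553, 5139, 5436 and 5730. Lrp5, best known for its role in bone mass, had 407, 661, 835 and 501. Lrp6 was over the threshold on every array and Lrp5 on 0 arrays. Lrp5 rests on a single probe set, so this does not rank the genes by amount. Fzd9, the other receptor not above background, had 971, 1022, 890 and 697 and was under the threshold on each array.

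Among the secreted inhibitors, Wif1 was 24.1 times the threshold, on its only probe set, whose suffix marks shared sequence. It had 33615, 25235, 30895 and 22871 on arrays 1 to 4, with arrays 1 and 3 higher than arrays 2 and 4. Dkk1, which blocks Lrp5 and Lrp6 and is itself switched on by Wnt signals in many tissues, had 7115, 8131, 8708 and 9142. Sfrp2, a Wnt-binding protein of mesenchyme, had 6337, 7711, 8145 and 9539. Array 1 was the lowest for Dkk1 and Sfrp2, and no value came near the threshold.

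Dkk3, a relative of Dkk1 that is not a clear Lrp blocker, had 7077, 7696, 7704 and 8584. Sfrp1 had 6758, 7115, 7726 and 7453, and Sfrp4, whose loss in people thins cortical bone, had 5205, 7635, 5794 and 6963. All 3 were above background with arrays within a narrow band for Dkk3 and Sfrp1 and a wider one for Sfrp4. Dkk2, which can activate or block the pathway, had 3101, 1972, 2043 and 2088. Its signal on array 1 stood apart from the other 3, and those 3 also exceeded their thresholds. Sfrp5 had 1350, 1050, 1540 and 1126 and passed on arrays 1 and 3. Dkk4, a target of Wnt signalling in skin appendages, had 320, 21.7, 80.6 and 49.9 and passed on 0 arrays.

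All 4 measured effectors were above background. Ctnnb1, for beta-catenin, had 92346, 104642, 98740 and 108347, or 87.2 times the threshold. Beta-catenin also serves in cell junctions, so its transcript is no measure of pathway activity. Axin1, the scaffold of the destruction complex, had 7250, 7995, 6409 and 8975. Axin2, the scaffold that Wnt signalling itself induces, had 4164, 4468, 3928 and 4321. Lef1 had 2278, 2281, 2212 and 1852, lowest on array 4, and was 1.86 times the threshold. Array spread was small beside the distance from the threshold for Ctnnb1, Axin1 and Axin2, and Lef1 was the effector nearest to it.

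Promoter sequence was looked at for all genes of the set with a promoter window, whether or not they are known to respond to Wnt signals. RefSeq promoter windows (GRCm38.p6, 250 bases before to 50 after a start site) were found for 29 of the 44 genes, in 36 windows. They were searched on both strands for CTTTGAT and CTTTGAA, core letters bound by Lef and Tcf factors. At least 1 of these was present in 3 of the 36 windows (8.33%), against 8.65% of all 32851 windows. The windows compared were not matched for base content, and a gene with several windows was counted once for each. The windows with a match belonged to Dkk1, Wnt11 and Wnt5b. The 250 bases before the start site are shown for Dkk1 and Wnt11, which were above background, with the match in capitals, and for Axin2, a Wnt target with no match in this window. Dkk1 is at chr19:30549497-30549746 (minus strand), Wnt11 at chr7:98834862-98835111 (plus strand) and Axin2 at chr11:108920099-108920348 (plus strand), each written in the direction of its gene.
Dkk1: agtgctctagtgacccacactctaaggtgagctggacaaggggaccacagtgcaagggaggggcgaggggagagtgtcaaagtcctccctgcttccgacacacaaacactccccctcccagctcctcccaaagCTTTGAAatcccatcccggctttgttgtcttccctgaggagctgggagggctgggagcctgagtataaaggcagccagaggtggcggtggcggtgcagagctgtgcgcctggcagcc
Wnt11: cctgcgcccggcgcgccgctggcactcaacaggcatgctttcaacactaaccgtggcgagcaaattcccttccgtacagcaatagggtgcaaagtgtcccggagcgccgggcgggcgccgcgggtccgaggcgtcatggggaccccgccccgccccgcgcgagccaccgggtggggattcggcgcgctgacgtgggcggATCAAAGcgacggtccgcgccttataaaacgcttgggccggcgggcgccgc
Axin2: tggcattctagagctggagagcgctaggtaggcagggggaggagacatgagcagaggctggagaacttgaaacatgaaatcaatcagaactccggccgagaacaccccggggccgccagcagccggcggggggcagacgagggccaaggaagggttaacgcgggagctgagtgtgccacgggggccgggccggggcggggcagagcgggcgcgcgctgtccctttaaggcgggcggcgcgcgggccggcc

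In Dkk1 the match starts 117 bases before the start site on the gene's own strand. In Wnt11 it starts 51 bases before it and reads CTTTGAT on the opposite strand, so that ATCAAAG stands in the sequence as printed. A match of letters is not evidence of binding. The Wnt windows were also rich in the CG dinucleotide, with a median of 29 CG in 300 bases for the 29 genes (richest window of each gene) against 8 over 27025 genes of the table. CG content differed little between calls, with a median of 31 in the 17 genes above background and 26.5 in the 12 not above it, and this is a description with no test.

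Probe sets of 1 gene often had different calls. Of the 27 genes of the set with more than 1 probe set, 13 (48.1%) had both a probe set above background and one not above it, against 48.2% of all 9012 genes with more than 1. The receptors accounted for 8 of the 13. Fzd7 had 13318 ± 572 on one probe set and 864 ± 409 on the other, which passed on 1 array. Axin2 had 4220 ± 231 on one and 599 ± 119 on the other, and Lef1 2156 ± 205 and 832 ± 175 (SD, n = 4). For Axin2 and Lef1 the dimmer probe set passed on 0 arrays, so these calls rest on 1 of 2 probe sets.

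The same held for most receptors. Fzd5 had 5559 ± 215 and 748 ± 150, Fzd8 had 2949 ± 336 and 719 ± 127, and Fzd10 had 2779 ± 370 and 200 ± 163 (SD, n = 4). In these 3 genes the dimmer probe set passed on 0 arrays. Fzd1 had 8543 ± 422 and 1560 ± 320 and Lrp6 had 5465 ± 248 and 1314 ± 257. The dimmer probe sets of Fzd1 and Lrp6 passed on 3 arrays. Fzd4 had probe sets at 1779 ± 103, 1400 ± 311 and 203 ± 168, of which 1 was above background, and Fzd3 had 6 probe sets, of which 4 were. When a gene was called on the median of its probe sets, 25 of the 44 were above background against 39.3% of all genes, and Fzd4, Fzd8, Fzd10 and Lef1 were not.

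The other genes with differing probe sets were Wnt5a, Wnt7a and Sfrp1. Wnt5a had 3 of 4 probe sets above background, and the fourth, at 1129 ± 425, passed on 3 arrays. Wnt7a had 2 of 3, with the third at 61.8 ± 21.2, and Sfrp1 had 4 of 5, with the fifth at 1320 ± 269 (SD, n = 4). All probe sets were above background in Wnt4, Wnt6, Wnt7b, Fzd2, Fzd6, Dkk1, Dkk3, Axin1 and Ctnnb1. None was in Wnt5b, Wnt8b, Wnt9a, Wnt9b and Sfrp5. Wnt10a, Wnt3a, Wnt11, Wif1, Sfrp2, Sfrp4 and Dkk2 were above background on the only probe set each had. The probe sequences are not analysed here, and which part of a transcript each probe set reads was not tested.

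**Figure D3:**
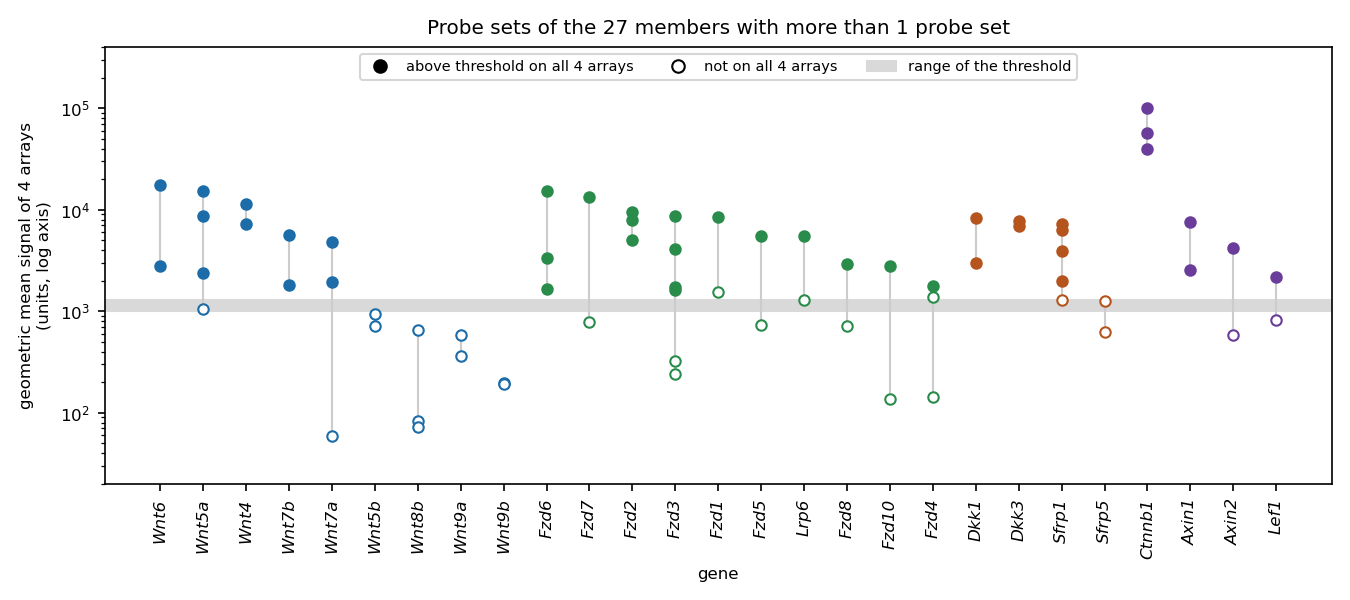
Each point is a probe set of one of the 27 genes with more than 1, placed at the geometric mean signal of the 4 arrays on a log axis, filled where it was above the threshold on all 4 arrays. Fzd7, Fzd10, Axin2 and Lef1 show a filled point above the grey threshold band and an open point below it, while all 3 points of Ctnnb1 are filled.

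A list of other genes of the pathway, chosen with earlier results of these data known, was set beside the family members. Of its 63 genes 62 were measured, and 48 (77.4%) were above background, against 51.6% of all genes. All 3 genes listed under Wnt secretion and release were above background. Wls, which carries Wnts to the cell surface, had 27206 ± 2094, Notum, an enzyme that strips their lipid and is itself a Wnt target, had 8251 ± 1622, and Porcn, which attaches the lipid, had 2250 ± 314 (SD, n = 4).

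Of 16 measured receptor partners and turnover genes, 10 were above background. Ryk, a Wnt-binding receptor, had 11525 ± 2333, and Lgr4, an R-spondin receptor, had 11199 ± 415. The related Lgr5, a marker of stem cells in several epithelia, had 676, 792, 1833 and 306 on arrays 1 to 4. It passed on array 3 alone and was not above background, and Ndp (Norrin), a ligand of Fzd4, had 848 ± 290 and passed on 1 array. Other extracellular or membrane inhibitors were above background for 4 of 7 genes. Sostdc1, a Wnt and Bmp inhibitor that limits tooth number, had 29001 ± 1095 and Apcdd1, a membrane inhibitor of hair follicles, had 10855 ± 2039. Dkkl1 had 91.9 ± 44.7 and Draxin 642 ± 186, and neither passed on any array.

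Cytoplasmic and nuclear genes were mostly above background, with 13 of 15 and 9 of 10. Csnk1a1 and Gsk3b, the kinases that mark beta-catenin for destruction, had 37805 ± 1147 and 23826 ± 3211 (SD, n = 4). Apc2 had 680 ± 322 and Dvl3, one of the 3 Dishevelled genes, 190 ± 80.1, both on 0 arrays. Tle3, a co-repressor that binds Lef and Tcf factors, had 9670 ± 1555, and Pygo2, a co-activator, had 8717 ± 733, whereas its relative Pygo1 had 319 ± 247 and was not above background. Nkd1, an inhibitor that Wnt signals induce, was the gene of this list nearest to the threshold from above, at 1514 ± 151. It was called by the array rule but had an adjusted p of 0.0635 in the limma test.

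Of the 3 general target genes, Ccnd1, for cyclin D1, had 17199 ± 891 and Myc 2141 ± 340, both above background, while Sp5 had 20.8, 30.2, 91.0 and 457 on arrays 1 to 4 and passed on 0. Ccnd1 and Myc respond to many signals, so they do not read out Wnt signalling alone. Planar cell polarity genes, which orient cells within a sheet with the help of Frizzleds, were above background for 7 of 8. Celsr1 had 19779 ± 2443 and Vangl2 17111 ± 1249, and Celsr3 had 331 ± 338 (SD, n = 4) and was the one not above it.

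**Figure D4:**
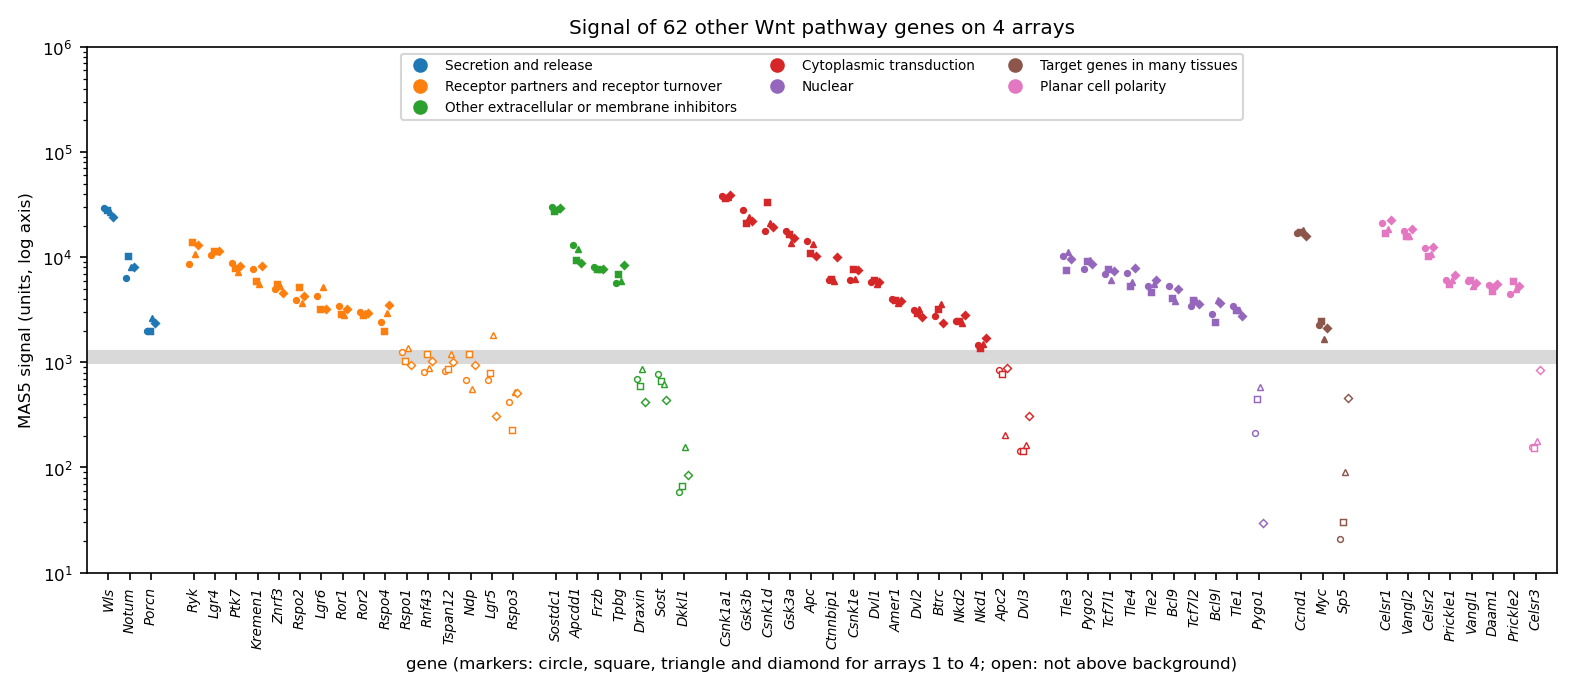
Each marker is the signal of 1 of 62 other Wnt pathway genes on 1 array, on a log axis, coloured by group, with the grey band showing the range of the threshold and open markers for genes not above background. All genes listed under secretion and release lie above the band, and Sp5, Pygo1, Dvl3 and Celsr3 lie below it on all 4 arrays.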

How the data were processed

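The deposited table lists, for 45101 probe sets, a signal intensity on every array. The authors computed it with MAS5, per the submitters' processing notes. No version or setting is given in the sources used here. Computed here, the mean intensity without the lowest and highest 2% was 2500 on every deposited array, so the arrays had been scaled linearly to a common target. Gene names came from the platform's annotation table, and probe sets naming several genes were left out. Signals were taken to log2 with no pseudocount, because all were above 0.

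Arrays have no read depth, so their number limits precision. Pairs of arrays correlated at a Pearson's r of 0.968 to 0.979 across the log2 signals of 14846 named probe sets above background (probe sets are not independent replicates). Tests used R 4.3.3 with limma 3.58.1 (one-sided, mean-variance trend, Benjamini-Hochberg adjusted p under 0.05) and Python 3.11.15.

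Values by array are given for up to 6 genes per role with the highest signal, genes passing on 1 to 3 arrays, genes whose probe sets disagree and neighbouring genes. For other pathway groups the text names the 2 highest above background and up to 2 not above it in alphabetical order. Values by array of Lrp5, Fzd9, Dkk2, Dkk4, Lgr5 and Sp5, and the names Porcn, Nkd1 and Frzb, were added after their values were seen. The genes and lists were chosen with earlier results of these data known.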

Additional observations from a re-analysis of the deposited data

Results flagged for a closer look

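A gap test asked whether 1 array lay apart from the other 3, for the log2 signal of each of the 44 genes, the medians of the set and its roles, and the number of genes over the threshold. It picked out 5 of 50 sets of values, where chance gives about 1 in 20 (2.5 of 50), and the sets share genes. Dkk2 was higher on array 1, at 11.60 against 10.95 to 11.03. Lef1 was lower on array 4, at 10.86 against 11.11 to 11.16, and Wnt8b, which was not above background, was lower there too, at 8.22 against 9.61 to 9.86. The median of all 44 genes was lowest on array 3, at 11.96 against 12.18 to 12.19, and that of the inhibitors on array 1, at 12.63 against 12.86 to 12.91. All arrays carry the same RNA pool. The cause of these gaps was not tested.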

How the results depend on the processing

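The count of 29 genes above background (51.6% of all genes) was also 29 with a threshold at the 99th percentile (48.2%), a call on at least 3 arrays (55.9%), the limma test (51.1%), quantile normalisation (51.6%), the brightest probe set alone (51.5%) and each array left out (51.8% to 54.1%). A call on at least 3 arrays, or with an array left out, cannot lose a gene called on all 4 arrays. Those settings could only add genes. The count was 34 with the 75th percentile, which added Fzd9, Sfrp5, Wnt1, Wnt5b and Wnt8a, when the share of all genes was 65.3%. It was 25 by the median probe set, with 39.3% of all genes, and 27 of 39 without shared-sequence suffixes, with 46.6%; Ctnnb1, Wif1, Wnt10b, Wnt3 and Wnt5b were not tested there. Over these alternatives the counts ranged from 8 to 11 for ligands, 7 to 11 for receptors, 6 to 8 for inhibitors, 3 to 4 for effectors and 35 to 52 for other pathway genes. The ligand share was above that of all genes by the median probe set (42.1% against 39.3%) and without shared-sequence suffixes (50% against 46.6%). With the 75th percentile it was below (57.9% against 65.3%). By the median probe set Fzd10 fell below the threshold, with a log2 signal over threshold of -0.92. The median log2 signal of the set was 12.11 to 12.19 with an array left out. Genes not above background had SDs from 0.15 to 1.62 on the log2 scale, the highest being Dkk4, far below the threshold. No paired analysis was possible because all arrays form 1 group.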
